A study of Mus musculus with 9 samples.

Results

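Whole retinas of homozygous *Rbpms*-CreERT2/CreERT2 mice (Cre/Cre) were compared with those of heterozygous *Rbpms*-CreERT2/+ mice (Cre/+) by bulk RNA-Seq. The 6 libraries, 3 of each genotype, were chosen by the genotype in their labels out of 9 in the series, and the other 3 came from wild type (+/+) retinas. All mice were on the C57BL/6J background and were taken at P42, and each library held a pair of retinas. The Cre/+ mice carried the inserted cassette on 1 allele of *Rbpms* and the Cre/Cre mice on both, so that the groups differ by 1 knock-in allele and every library compared holds at least 1. Per the study's methods the line descended from zygotes injected with Cas9, the cassette is a P2A peptide followed by CreERT2, a Cre recombinase that tamoxifen activates, and it is read in frame with the end of the *Rbpms* coding sequence. The labels name no tamoxifen treatment. The question was whether a second copy of the allele changed the retinal transcriptome.

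Retinal ganglion cells (RGCs) are the output neurons of the retina, and their axons form the optic nerve. RBPMS, RNA-binding protein with multiple splicing, carries an RNA recognition motif and marks RGCs in the mammalian retina, whereas in other tissues it is known from smooth muscle and heart. A P2A peptide makes the ribosome skip a peptide bond, so that a single messenger RNA yields RBPMS and CreERT2 as separate proteins.

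Levels are in TPM, a unit that divides reads by gene length and scales every library to the same total. Of 25239 genes listed, the 15198 with a mean of at least 1 TPM over the 9 libraries were tested with limma on log2(TPM + 1). Log2 fold changes are on that scale, are given as Cre/Cre minus Cre/+, and are damped for genes near 1 TPM. Adjusted p-values are Benjamini-Hochberg values over all tested genes. The labels give each library as a separate sample but do not name the animals, so p-values measure the spread between these libraries.

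The libraries held an estimated 4.05 to 4.65 gigabases of aligned reads, and all 19 defining markers of rods, cones, bipolar, amacrine, horizontal, Müller glial and ganglion cells that were checked had at least 3.33 TPM in each of the 6 libraries. Cre/Cre replicate 1 stood apart. Although RNA was selected for poly(A), its Rn45s, the ribosomal RNA precursor, took 9.21% of TPM against 0.0909% to 0.336% in the other 5, and its size factor by the median ratio of all genes was 0.917 against 1.00 to 1.03. Of the 15198 tested genes, 7331 had their lowest value of the 6 libraries in it. Cre/Cre replicate 2 held 1723 TPM of lens genes, against 102 to 414 TPM in the other 5 libraries. *Xist* was at most 3.16 TPM, and the Y-linked *Ddx3y* at least 54.8 TPM, in Cre/+ replicate 3 and in Cre/Cre replicates 1 and 3, so that 1 of 3 heterozygous and 2 of 3 homozygous libraries had this pattern. The part of these features in the results was not tested beyond the values given beside them.

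*Rbpms* lies on the minus strand of chromosome 8, at chr8:33782644-33929863 in mm10. Its annotated protein-coding transcripts with a complete end in GENCODE on GRCm38, the assembly of mm10, use 3 different stop codons, and the last 30 coding bases of each are shown, because the cassette joins only 1 of these ends. Capitals mark the stop codon, and the sequences run 5′ to 3′ on the coding strand.
Rbpms-203 and Rbpms-213: cagggctggaagtcccggcagttctgcTGA
Rbpms-202: gcagaccagcagagggagctcccgtgtTGA
Rbpms-201: gttctgcaaaactggagcttgctggctTGA
The guide RNA given in the study's methods matches the first of these ends, whose stop codon is at chr8:33795088-33795090. The other stop codons are at chr8:33804051-33804053 for Rbpms-202 and at chr8:33784181-33784183 for Rbpms-201. The deposited tables give a single *Rbpms* value that does not separate the transcripts.

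The gene carrying the knock-in was lower with 2 altered alleles than with 1. The Cre/+ libraries had 31.3, 32.2 and 33.1 TPM of *Rbpms*, a mean of 32.2 ± 0.888 (SD, n = 3). The Cre/Cre libraries had 19.7, 19.1 and 24.2 TPM, a mean of 21.0 ± 2.80 (SD, n = 3), or 65.3% of the heterozygous mean. Every homozygous library was below every heterozygous one, and among the Xist-rich libraries alone, Cre/Cre replicate 2 (19.1 TPM) was below Cre/+ replicates 1 and 2. The log2 fold change was -0.60 ± 0.10 (SE), the fourth smallest p of all genes, and its adjusted p of 0.0567 in limma missed the limit of 0.05. An exact two-sided permutation test of the TPM gave p = 0.1, the smallest value that 3 against 3 allow. Over the alternative fits the adjusted p ranged from 0.0107 to 0.383 and the log2 fold change from -0.70 to -0.54. It passed the limit with *Xist* as a covariate (0.0337), with FPKM (0.035), with a mean of at least 5 TPM (0.0166) and without Cre/Cre replicate 3 (0.0107). The study reported similar RBPMS immunostaining in RGCs of +/+, Cre/+ and Cre/Cre retinas, a measure of protein and not of RNA. From its own RNA-Seq analysis it also reported no significant difference among the genotypes in RGC marker genes, *Rbpms* among them. Its limits were an adjusted p under 0.05 together with a change above 2-fold, and the difference described here is smaller than 2-fold.

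No difference was called for the genes around *Rbpms* or for its paralog. Within 1 Mb of its middle, 17 other genes were listed and 14 tested, and 0 of these had an unadjusted p under 0.05 in limma, where 6.58% of all tested genes had one. Their log2 fold changes lay between -0.16 and 0.03, and in 0 of the 14 were the genotypes separate. *Rbpms2*, which encodes the closest relative of RBPMS and is also found in RGCs, had 30.3, 31.7 and 34.4 TPM in Cre/+ and 27.5, 35.9 and 30.4 TPM in Cre/Cre. These values overlapped, and the log2 fold change was -0.05 ± 0.10 (SE), turning positive without Cre/Cre replicate 1 (0.04).

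**Figure D1:**
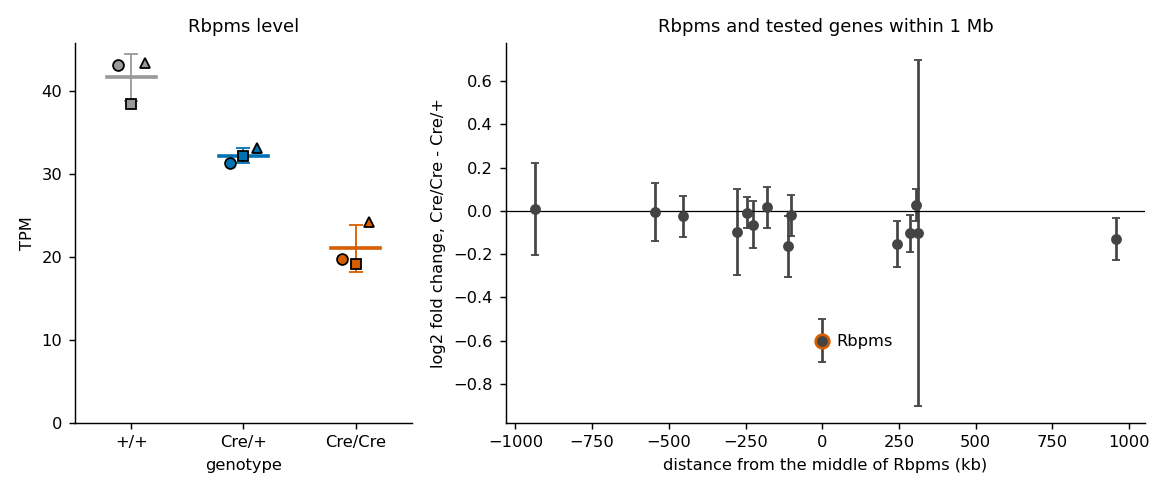
Left, *Rbpms* level (TPM) in each library by genotype, with circle, square and triangle for replicates 1, 2 and 3, a line at the mean and bars of 1 SD (n = 3). Right, log2 fold change (Cre/Cre minus Cre/+, bars are SE) of *Rbpms* and the 14 tested genes within 1 Mb against the distance of each gene's middle from that of *Rbpms* in kb; the 14 lie between -0.16 and 0.03 and *Rbpms* at -0.60.

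Across the transcriptome, 2 of 15198 genes (0.0132%) passed an adjusted p of 0.05 in limma, and both were higher in Cre/Cre. They were *Hbb-bt*, a beta globin gene, and *Mir1249*, a microRNA gene. Together with a change of at least 2-fold the count was 1 (0.00658%), *Hbb-bt*. The next adjusted p, 0.0567, was shared by *Moap1* and *Rbpms*. At an unadjusted p under 0.05, 362 genes were higher (2.38%) and 638 lower (4.2%). The genotypes did not overlap in 723 genes that were higher (4.76%) and 1099 that were lower (7.23%). The log2 fold changes were below 0 for 9001 genes (59.2%), with a median of -0.03.

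The balance of higher and lower genes changed with the scaling and with single libraries. After median-ratio scaling the split at an unadjusted p under 0.05 was 659 higher and 625 lower. After the RNA genes without poly(A) tails were left out and TPM rescaled, it was 850 and 433. Without Cre/Cre replicate 1 it was 494 higher and 261 lower, and without Cre/Cre replicate 3 it was 380 and 1518.

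**Figure D2:**
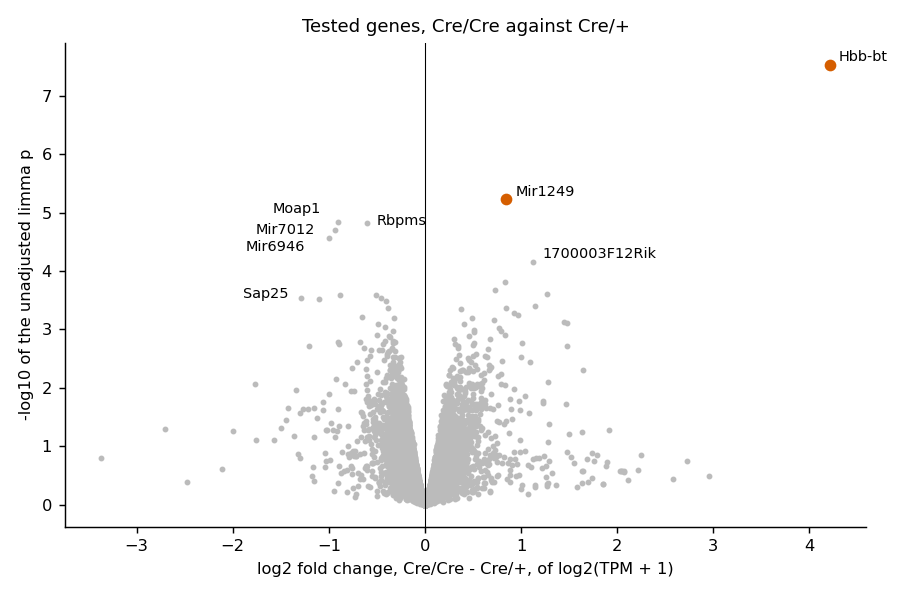
Each point is 1 of the 15198 tested genes, with its log2 fold change (Cre/Cre minus Cre/+) on the x axis and −log10 of the unadjusted limma p on the y axis; the genes past an adjusted p of 0.05, *Hbb-bt* and *Mir1249*, are orange. The place of *Hbb-bt* on the x axis depends on the pseudocount of 1, since the heterozygous libraries list it at 0.

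*Hbb-bt*, which encodes an adult beta globin chain of red blood cells, had 29.8, 13.6 and 13.2 TPM in Cre/Cre, while each of the 3 heterozygous libraries listed it at 0 (adjusted p = 0.000448, limma). No fold change is given against a group listed at 0. The +/+ libraries had 8.29, 9.35 and 15.5 TPM, so that under this name alone the heterozygous group stood apart from the other genotypes. The tables list *Hbb-bt* and *Hbb-b2* over the same interval, chr7:103812524-103813923 on the minus strand, and a read there can be given to either name. *Hbb-b2* had 16.6, 17.5 and 16.2 TPM in Cre/+ and 32.9, 15.4 and 14.5 TPM in Cre/Cre, which overlapped. The 2 names summed had 16.6, 17.5 and 16.2 TPM in Cre/+ and 62.7, 29.0 and 27.7 TPM in Cre/Cre. In +/+ this sum was 17.5, 19.5 and 32.2 TPM, so the heterozygous group did not stand apart from +/+ in it. The neighbouring *Hbb-bs* overlaps *Hbb-b1* in the same way.

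Reads can also be shared between the 2 loci. In GENCODE, the coding sequences of *Hbb-bt* and *Hbb-bs* are 444 bases each and differ at 1 base, which is 99.8% identity. Bases 402 to 431 of each are shown for that reason, with the base that differs in capitals.
Hbb-bt: ggtggctggagtggcTgctgccctggctca
Hbb-bs: ggtggctggagtggcCgctgccctggctca
With the 4 beta globin names summed, Cre/+ libraries had 53.7, 66.8 and 52.6 TPM and Cre/Cre libraries 193, 110 and 108 TPM. The 2 alpha globin names, whose values switch between *Hba-a1* and *Hba-a2* from library to library, summed to 90.9, 103 and 95.6 TPM in Cre/+ and to 266, 142 and 170 TPM in Cre/Cre. In both sums each homozygous library was above each heterozygous one, and Cre/Cre replicate 1 was the highest. The +/+ libraries had 68.8, 66.4 and 102 TPM in the beta sum, below each homozygous library and overlapping Cre/+. In the alpha sum they had 104, 139 and 165 TPM, which overlapped Cre/Cre. When names that share an interval were summed before the fit (a setting added once the values were known), the *Hbb-bt* locus had a log2 fold change of 1.10 ± 0.36 (SE) with an adjusted p of 0.738, the *Hbb-bs* locus 1.20 ± 0.24 with 0.498, and the *Hba-a1* locus 0.94 ± 0.26 with 0.702 (limma). In that fit 0 genes passed the adjusted limit, while 364 were higher and 638 lower at an unadjusted p under 0.05.

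Of the remaining 4 genes on the list of red cell genes that were tested, *Alas2*, which encodes the first enzyme of heme synthesis in red cells, had 1.68, 1.75 and 1.01 TPM in Cre/+ and 4.21, 1.83 and 1.44 TPM in Cre/Cre. These values overlapped (log2 fold change 0.43, adjusted p = 0.747 in limma). Blood left in the vessels and transcription in the retina cannot be told apart in these libraries.

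MicroRNA genes were the other group among the leading genes. MicroRNAs are cut from hairpins within longer transcripts and pair through their seed, bases 2 to 8, with target messages. The libraries were made from fragmented poly(A) RNA and not by a small RNA protocol, so a value at such a locus counts reads over the hairpin and is not a level of the mature form. RefSeq's mature sequences (GRCm38.p6) are shown for the 3 microRNA genes with the smallest p, with the seed in capitals.
mmu-miR-1249-3p: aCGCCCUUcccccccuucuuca
mmu-miR-7012-5p: aAGGAGAGgaguuggcagggacu
mmu-miR-7012-3p: uGACCUGUggcuccucucccag
mmu-miR-6946-5p: aAAAGGGAgagaaagaaaugc
mmu-miR-6946-3p: uUUCUUCUcuucccuuucag
The 5 sequences have 5 different seeds, so the loci are not members of 1 seed family.

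The *Mir1249* locus, chr15:84951526-84951623 on the minus strand, lies in an annotated exon of *5031439G07Rik*. It had 9.13, 12.3 and 8.88 TPM in Cre/+ and 17.1, 19.4 and 19.9 TPM in Cre/Cre. The genotypes were separate, the log2 fold change was 0.85 ± 0.13 (SE) and the adjusted p was 0.0452 (limma). Coverage was 10.6 to 25.0 reads per base over 98 bases, so few reads carry the value. The +/+ libraries had 15.6, 18.6 and 16.3 TPM, above all heterozygous and near the homozygous values. The host gene overlapped between the genotypes, with a log2 fold change of 0.00. *Mir1249* was also called in 5 of 11 other settings that kept all 6 libraries compared, and in 2 of the 9 fits without 1 library.

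*Mir7012* and *Mir6946* were lower in Cre/Cre without passing the limit. *Mir7012*, chr3:90270149-90270212 on the plus strand in an intron of *Dennd4b*, had 9.42, 7.60 and 7.42 TPM in Cre/+ and 4.29, 3.40 and 3.67 TPM in Cre/Cre (log2 fold change -0.93, adjusted p = 0.0608 in limma). *Mir6946*, chr14:20690635-20690703 on the plus strand in an intron of *Sec24c*, had 6.25, 6.48 and 6.97 TPM in Cre/+ and 3.34, 2.72 and 2.36 TPM in Cre/Cre (adjusted p = 0.0701). Both were separate between the genotypes, and their hosts *Dennd4b* and *Sec24c* had log2 fold changes of 0.02 and -0.00. *Mir20a*, of the miR-17 cluster, had 1.82, 2.54 and 2.29 TPM in Cre/+ and 5.28, 4.96 and 11.4 TPM in Cre/Cre, and its host *Mir17hg* a log2 fold change of -0.18. *Mir1192*, in an intron of *Klf9*, had 1.12, 1.53 and 0.835 TPM in Cre/+ and was listed at 0 in each homozygous library. Few reads carry the values of these 4 loci. Over the 6 libraries, coverage was 4.29 to 12.7 reads per base for *Mir7012* and 2.96 to 8.43 for *Mir6946*. It was 2.46 to 14.2 for *Mir20a* and at most 1.84 for *Mir1192*.

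Over all 310 microRNA genes tested, the median log2 fold change was 0.01, against -0.03 for all tested genes. At an unadjusted p under 0.05, 23 were higher and 20 lower, which is 7.42% and 6.45% against 2.38% and 4.2% of all genes. Of the 299 loci of at most 200 bases, 265 lay in another gene on the same strand, 158 of them in introns and 107 in exons. For the 239 whose host was tested, host and hairpin had the same sign in 124. Among the 38 of these with an unadjusted p under 0.05, the host had the same sign and also a p under 0.05 in 1.

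**Figure D3:**
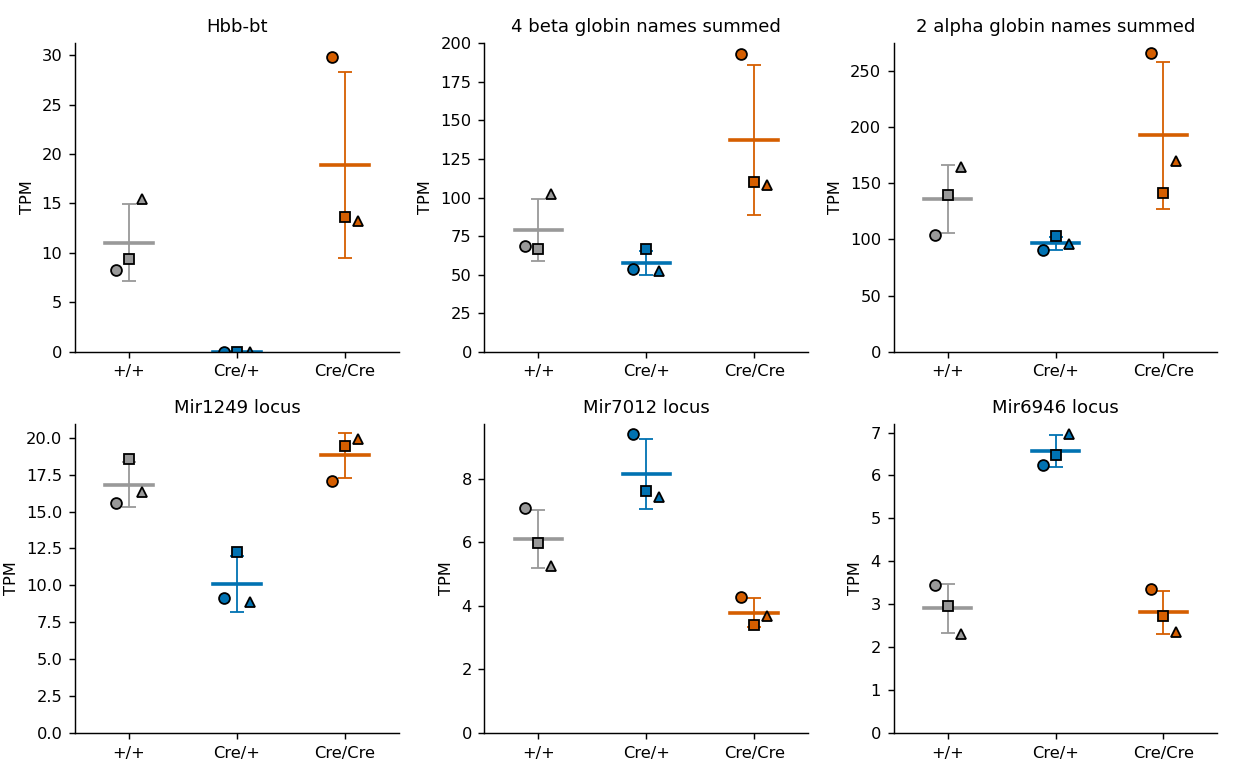
TPM of each library by genotype for *Hbb-bt*, the summed beta and alpha globin names, and the *Mir1249*, *Mir7012* and *Mir6946* loci; circles, squares and triangles are replicates 1, 2 and 3, lines the means and bars 1 SD (n = 3). The Cre/+ and Cre/Cre points are separate in all 6 panels, and in the *Hbb-bt*, *Mir1249* and *Mir6946* panels the +/+ points lie nearer those of Cre/Cre.

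*Moap1*, which encodes a BAX-binding protein of the mitochondrial apoptosis pathway, was the protein-coding gene with the smallest p after *Hbb-bt*. It had 25.0, 19.8 and 19.8 TPM in Cre/+ and 9.33, 10.4 and 13.5 TPM in Cre/Cre. Under this name alone the genotypes were separate, with a log2 fold change of -0.90 ± 0.15 (SE) and an adjusted p of 0.0567 (limma). Its interval, chr12:102739830-102743661, is also covered on the same strand by the gene models *Gm28051* and *Gm20604*, so that reads can be split among these names. *Gm20604*, looked up for this reason, went the other way, with 5.37, 12.2 and 12.9 TPM in Cre/+ and 15.5, 21.1 and 19.4 TPM in Cre/Cre (log2 fold change 0.89). These names were not summed before a fit, so the values under *Moap1* do not show that RNA of the whole locus was lower. The +/+ mean of *Moap1* was 13.6 TPM, between the 2 groups and nearer Cre/Cre.

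Among the other leading protein-coding genes that were lower, 0 passed the adjusted limit. *Mest*, an imprinted gene, had 78.0, 91.1 and 85.0 TPM in Cre/+ and 54.3, 66.2 and 64.5 TPM in Cre/Cre, a log2 fold change of -0.46. *S100a1*, which encodes a calcium-binding protein, had 64.9, 63.6 and 70.7 TPM in Cre/+ and 48.8, 55.5 and 46.2 TPM in Cre/Cre, a log2 fold change of -0.40. No library of one genotype reached the range of the other in either gene. *Apela*, which encodes a peptide ligand of the apelin receptor, had 19.5, 22.6 and 21.4 TPM in Cre/+ and 13.7, 15.7 and 14.5 TPM in Cre/Cre. *Sap25*, which encodes a subunit of the SIN3 corepressor complex, had 3.35, 3.58 and 3.59 TPM in Cre/+ and 0.451, 0.463 and 1.94 TPM in Cre/Cre. Adjusted p-values of these 4 genes were 0.302 to 0.307 (limma), and all 4 kept their sign without Cre/Cre replicate 1 and under median-ratio scaling. *Apela* and *Sap25* are overlapped on the same strand by the gene models *Gm45886* and *Gm20605*, so reads can be split there too. *Sap25* was near the filter of 1 TPM, and without 1 library its adjusted p ran from 0.0243 to 0.800 (limma).

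Leading genes that were higher also missed the adjusted limit, apart from *Hbb-bt* and *Mir1249*. *Tmem203*, which encodes a membrane protein of the endoplasmic reticulum, had 26.9, 25.4 and 28.7 TPM in Cre/+ and 36.7, 33.3 and 36.3 TPM in Cre/Cre, a log2 fold change of 0.38 (adjusted p = 0.344, limma). *Gstp2*, which encodes a glutathione S-transferase, had 10.8, 14.4 and 8.39 TPM in Cre/+ and 24.6, 22.2 and 18.6 TPM in Cre/Cre. In both the groups did not overlap, and the +/+ mean of *Gstp2*, 22.7 TPM, was within the homozygous range. *1700003F12Rik* had 1.04, 1.07 and 0.840 TPM in Cre/+ and 4.65, 3.13 and 2.49 TPM in Cre/Cre, a log2 fold change of 1.13 (adjusted p = 0.15, limma). *Tusc1* had 2.68, 2.35 and 1.82 TPM in Cre/+ and 4.40, 6.50 and 3.98 TPM in Cre/Cre. The long non-coding RNA gene *1810044D09Rik* had 9.80, 9.45 and 6.45 TPM in Cre/+ and 14.8, 17.6 and 15.2 TPM in Cre/Cre.

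Markers shared by RGCs were lower in Cre/Cre as a group, and no member passed the adjusted limit. Of 30 markers, 29 had a log2 fold change below 0 and the median was -0.20, against -0.03 for all tested genes. At an unadjusted p under 0.05, 0 were higher and 9 lower, against 4.2% of all genes. The smallest adjusted p was 0.388 (limma). Summed over the list, Cre/+ libraries had 3611, 3679 and 3719 TPM and Cre/Cre libraries 2898, 3454 and 3478 TPM, and the +/+ libraries 3745 to 3820 TPM. The 2 genotypes were separate in this sum, also after median-ratio scaling (3574 to 3665 against 3162 to 3385). The study counted RBPMS-positive and POU4F1-positive cells in whole-mount retinas and reported no significant difference in their number among the genotypes. In the RNA of whole retina, fewer RGCs and less RNA of these genes per RGC cannot be told apart.

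Cre/Cre replicate 1 carried much of this difference. It had the lowest of the 6 values in 27 of the 30 markers, and 48.2% of all tested genes were also lowest there. Without it the median was -0.09, with 0 higher and 4 lower at an unadjusted p under 0.05, while the median of all genes was 0.02. With median-ratio scaling and without that library, also added once the values were known, the median was -0.11, with 6 lower, against -0.00 for all genes. Under median-ratio scaling with all libraries it was -0.17, with 10 lower.

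The neurofilament genes *Nefh* and *Nefl* had the smallest p of the markers. *Nefh*, which encodes the heavy neurofilament chain of large axons, had 91.4, 101 and 99.4 TPM in Cre/+ and 74.5, 77.3 and 81.0 TPM in Cre/Cre, a log2 fold change of -0.32 ± 0.08 (SE). The genotypes were separate, and the value without Cre/Cre replicate 1 was -0.29. *Nefl*, which encodes the light chain, had 560, 562 and 577 TPM in Cre/+ and 415, 505 and 512 TPM in Cre/Cre, a log2 fold change of -0.25. *Pou4f1*, which encodes the transcription factor BRN3A of RGCs, had 23.6, 24.7 and 22.5 TPM in Cre/+ and 16.8, 20.2 and 21.2 TPM in Cre/Cre. *Thy1*, which encodes a surface glycoprotein long used as an RGC marker, had 303, 327 and 317 TPM in Cre/+ and 253, 299 and 281 TPM in Cre/Cre. In all 4 genes each homozygous library was below each heterozygous one, and unadjusted p-values ran from 0.000639 to 0.0245 (limma).

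*Tubb3*, which encodes neuronal beta tubulin, had 146, 139 and 145 TPM in Cre/+ and 124, 150 and 148 TPM in Cre/Cre, a log2 fold change of -0.03. The genotypes overlapped in this gene. Of the 19 genes of RGCs and other cells that the study's discussion names, 16 were below 0 (84.2%, against 59.2% of all tested genes). They ranged from -0.31 to 0.16. An unadjusted p under 0.05 was found for 3, all lower (15.8%, against 4.2%): *Thy1*, *Pou4f1* and *Jam2*. Without Cre/Cre replicate 1, 0 of the 19 had such a p.

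**Figure D4:**
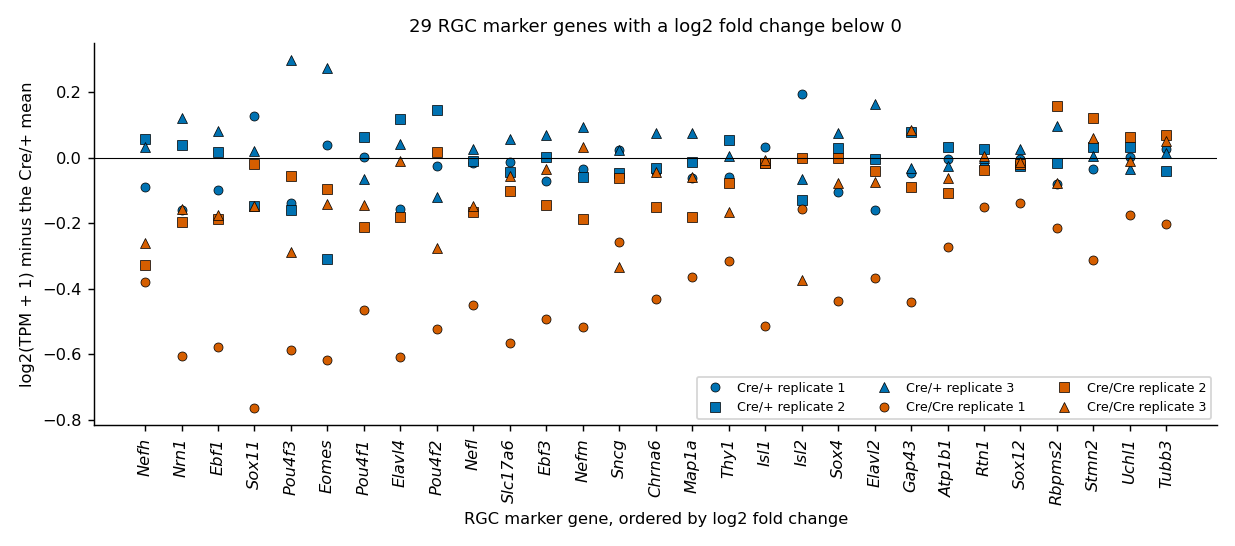
Log2(TPM + 1) minus the Cre/+ mean, in the 6 libraries, for the 29 RGC markers with a log2 fold change below 0; blue is Cre/+, orange Cre/Cre, and circles, squares and triangles are replicates 1, 2 and 3. Cre/Cre replicate 1 is the lowest point for 27 markers, and Cre/Cre replicates 2 and 3 lie nearer the heterozygous points.

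Markers of RGC subtypes were less uniform. Of 30, 19 were below 0 (63.3%, against 59.2% of all tested genes), the median was -0.07, and 0 were higher and 3 lower at an unadjusted p under 0.05 (10% lower, against 4.2%). The lowest library was Cre/Cre replicate 1 in 14, and without it the median was -0.01. *Neurod2*, a transcription factor gene of a subset of RGCs and amacrine cells, had 18.6, 20.4 and 18.3 TPM in Cre/+ and 13.3, 15.2 and 16.5 TPM in Cre/Cre (log2 fold change -0.34). *Jam2*, which marks RGCs that respond to upward motion, had 110, 119 and 111 TPM in Cre/+ and 91.5, 98.0 and 109 TPM in Cre/Cre (log2 fold change -0.19). In both, all homozygous values were below all heterozygous ones. The list summed to 715, 724 and 695 TPM in Cre/+ and to 612, 806 and 634 TPM in Cre/Cre, which overlapped.

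Rod genes were slightly lower, and cone arrestin was higher. All 20 rod genes were below 0, where 59.2% of all tested genes were, with a median of -0.10 and 2 lower at an unadjusted p under 0.05 (10% against 4.2%). Cre/Cre replicate 1 was the lowest library in 19 of them. Without it 16 were below 0 and the median was -0.03, and after rescaling without the RNA genes that lack poly(A) tails 14 were. *Gngt1*, the gamma subunit of rod transducin, had 3584, 3343 and 3046 TPM in Cre/+ and 2426, 2978 and 2789 TPM in Cre/Cre (log2 fold change -0.29). *Arr3*, cone arrestin, went the other way, with 729, 606 and 677 TPM in Cre/+ and 736, 818 and 839 TPM in Cre/Cre (log2 fold change 0.25, adjusted p = 0.653 in limma). It was the only one of 15 cone genes that was higher at an unadjusted p under 0.05, while 3 were lower, among them *Cngb3* (-0.28) and *Gnb3* (-0.17). These shares were 6.67% and 20%, against 2.38% and 4.2% of all tested genes. In 8 of the 15 the lowest library was Cre/Cre replicate 1, and 0 were lower at such a p without it or with *Xist* as a covariate.

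Bipolar and amacrine genes were mostly below 0, where 59.2% of all tested genes were. Cre/Cre replicate 1 was the lowest library in 23 of 25 bipolar and 16 of 23 amacrine genes. All 25 bipolar genes were below 0, with a median of -0.16. At an unadjusted p under 0.05, 3 were lower (12%, against 4.2% of all tested genes). Without that library there were 0 such genes and the median was -0.06. *Pcp2*, of rod bipolar cells and ON cone bipolar cells, had 607, 545 and 532 TPM in Cre/+ and 449, 514 and 467 TPM in Cre/Cre (log2 fold change -0.23). *Prkca*, protein kinase C alpha of rod bipolar cells, had 170, 175 and 179 TPM in Cre/+ and 147, 161 and 160 TPM in Cre/Cre (log2 fold change -0.16). In both the genotypes were separate. Of 23 amacrine genes 16 were below 0, with 3 lower at an unadjusted p under 0.05 (13.0%, against 4.2%). *Gad2*, an enzyme of GABA synthesis, had a log2 fold change of -0.22. Of 9 horizontal cell genes 6 were below 0, and 2 were lower at an unadjusted p under 0.05 (22.2%, against 4.2%). These were *Onecut1* (-0.40) and *Calb1* (-0.22). Without Cre/Cre replicate 1, 0 amacrine and 0 horizontal cell genes had an unadjusted p under 0.05.

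Müller glial genes were mostly lower, with 1 exception at an unadjusted p under 0.05. Of 21, 15 were below 0 (71.4%, against 59.2% of all tested genes), with a median of -0.09, and 1 was higher and 5 lower at an unadjusted p under 0.05 (4.76% and 23.8%, against 2.38% and 4.2%). Cre/Cre replicate 1 was the lowest library in 16, and without it the median was -0.02, with 2 higher and 3 lower. *Glul*, glutamine synthetase, had 3094, 3315 and 3344 TPM in Cre/+ and 2700, 2951 and 2957 TPM in Cre/Cre (log2 fold change -0.18). *Cdkn1b*, a cell cycle inhibitor that keeps Müller glia quiescent, had 185, 194 and 187 TPM in Cre/+ and 140, 166 and 173 TPM in Cre/Cre (log2 fold change -0.24), and *Sox2* had a log2 fold change of -0.22. *Id3*, an inhibitor of basic helix-loop-helix factors, had at most 36.7 TPM in Cre/+ and at least 38.1 TPM in Cre/Cre (log2 fold change 0.23). *Glul*, *Cdkn1b* and *Id3* did not overlap between the genotypes, and all adjusted p-values were at least 0.739 (limma).

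No gliosis or microglial gene was higher at an unadjusted p under 0.05, where 2.38% of all tested genes were, so 0 in lists this short says little. Of 14 astrocyte and gliosis genes tested, 0 were higher and 2 lower at an unadjusted p under 0.05 (14.3% lower, against 4.2%). *Serpina3n*, an acute-phase gene of reactive astrocytes, had 6.50, 6.13 and 6.29 TPM in Cre/+ and 3.83, 5.11 and 3.35 TPM in Cre/Cre (log2 fold change -0.53), and *Socs3* had a log2 fold change of -0.44. Of 17 microglial genes, 0 had an unadjusted p under 0.05 in either direction, against 6.58% of all tested genes, and their median was -0.04. *Trem2*, a receptor of microglia, had 1.30, 2.01 and 1.30 TPM in Cre/+ and 2.25, 2.10 and 3.99 TPM in Cre/Cre (log2 fold change 0.55, adjusted p = 0.74 in limma), without overlap.

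Vascular genes were mixed, and those of smooth muscle, the other known site of *Rbpms*, showed no difference past an unadjusted p of 0.05. At an unadjusted p under 0.05, 2 of 15 endothelial genes were higher, *Ramp2* (0.39) and *Slc2a1* (0.16), and 1 was lower, *Esam* (-0.31). These were 13.3% and 6.67%, against 2.38% and 4.2% of all tested genes. *Slc2a1*, the glucose transporter of the blood-retina barrier, had 185, 193 and 196 TPM in Cre/+ and 206, 222 and 217 TPM in Cre/Cre. *Esam*, an adhesion molecule of endothelial junctions, had 20.5 to 22.2 TPM in Cre/Cre and 25.6 to 28.6 TPM in Cre/+. The genotypes were separate in both. Of the 21 smooth muscle and pericyte genes 16 were tested, and 0 had an unadjusted p under 0.05, against 6.58% of all tested genes. Their median was -0.06, with 14 below 0 (87.5%, against 59.2%). *Rgs5*, a pericyte marker, had a log2 fold change of -0.14.

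Lens genes varied widely between libraries of one genotype. The 20 lens genes tested had a median of 0.78, with 0 past an unadjusted p of 0.05, against 6.58% of all tested genes. *Cryaa*, alpha A crystallin, had 59.8, 6.37 and 66.4 TPM in Cre/+ and 110, 481 and 28.2 TPM in Cre/Cre, and the highest value was that of replicate 2. Without Cre/Cre replicate 2 the list's median was 0.19. Of 12 tested genes of the retinal pigment epithelium 11 were below 0 (91.7%, against 59.2% of all tested genes), with a median of -0.16. Its lactate transporter, *Slc16a8*, was the 1 member lower at an unadjusted p under 0.05 (8.33%, against 4.2%), with a log2 fold change of -0.59.

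Classical MHC class I genes were higher. *H2-K1*, a classical MHC class I heavy chain, had 31.8, 35.2 and 28.8 TPM in Cre/+ and 44.7, 54.8 and 38.1 TPM in Cre/Cre, a log2 fold change of 0.50 ± 0.13 (SE). *H2-D1* had 68.1, 74.5 and 68.5 TPM in Cre/+ and 74.6, 93.2 and 89.1 TPM in Cre/Cre (log2 fold change 0.27). Both were separate between genotypes, with adjusted p-values of 0.5 and 0.7 (limma). At an unadjusted p under 0.05, 2 of the 22 genes tested on the interferon and MHC list were higher and 0 lower. These shares were 9.09% and 0%, against 2.38% and 4.2% of all tested genes. Of the 22, 19 were below 0 (86.4%, against 59.2%), with a median of -0.20. Single libraries set this median, since Cre/+ replicate 2 was the highest in 17 genes and Cre/Cre replicate 1 the lowest in 13. It was 0.11 without the first and -0.04 without the second, and 12 genes were below 0 with *Xist* as a covariate. *Irf9*, of the factor that interferon activates, had 27.6, 39.2 and 23.2 TPM in Cre/+ and 20.3, 27.6 and 22.7 TPM in Cre/Cre (log2 fold change -0.32), which overlapped.

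Stress, activity and clock genes differed in single members. Of 20 genes of axon injury and neuronal stress, 2 were higher at an unadjusted p under 0.05 (10%, against 2.38% of all tested genes) and 0 lower (against 4.2%). *Bax*, the effector of mitochondrial cell death, had 66.1, 62.9 and 70.4 TPM in Cre/+ and 73.4, 79.2 and 80.6 TPM in Cre/Cre (log2 fold change 0.22, adjusted p = 0.7 in limma). *Gal*, galanin, overlapped between the genotypes (log2 fold change 0.69). Of 23 immediate early genes 15 were above 0, and 1 was higher at an unadjusted p under 0.05 (4.35%, against 2.38%). It was *Klf2*, which blood flow induces in endothelium, with 3.43, 3.57 and 2.59 TPM in Cre/+ and 5.05, 5.86 and 4.47 TPM in Cre/Cre. Of 20 circadian clock genes 0 had an unadjusted p under 0.05, against 6.58% of all tested genes. Their median was 0.01, and *Clock* itself had a log2 fold change of -0.18.

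RNA-binding protein genes of neurons and muscle were examined because RBPMS acts on RNA. Of 31 tested, 27 were below 0 (87.1%, against 59.2% of all tested genes), the median was -0.09, and 0 were higher and 5 lower at an unadjusted p under 0.05 (16.1% lower, against 4.2%), *Rbpms* among them. In 25 the lowest library was Cre/Cre replicate 1, and without it 18 were below 0, the median was -0.02 and 1 was lower. *Esrp1*, an epithelial splicing regulator, had 2.34, 1.92 and 2.11 TPM in Cre/+ and 0.720, 1.53 and 1.15 TPM in Cre/Cre (log2 fold change -0.57). *Msi1*, Musashi 1 of photoreceptors and glia and the most abundant of the list, had a log2 fold change of -0.01. Gene-level TPM say nothing of splicing itself.

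**Figure D5:**
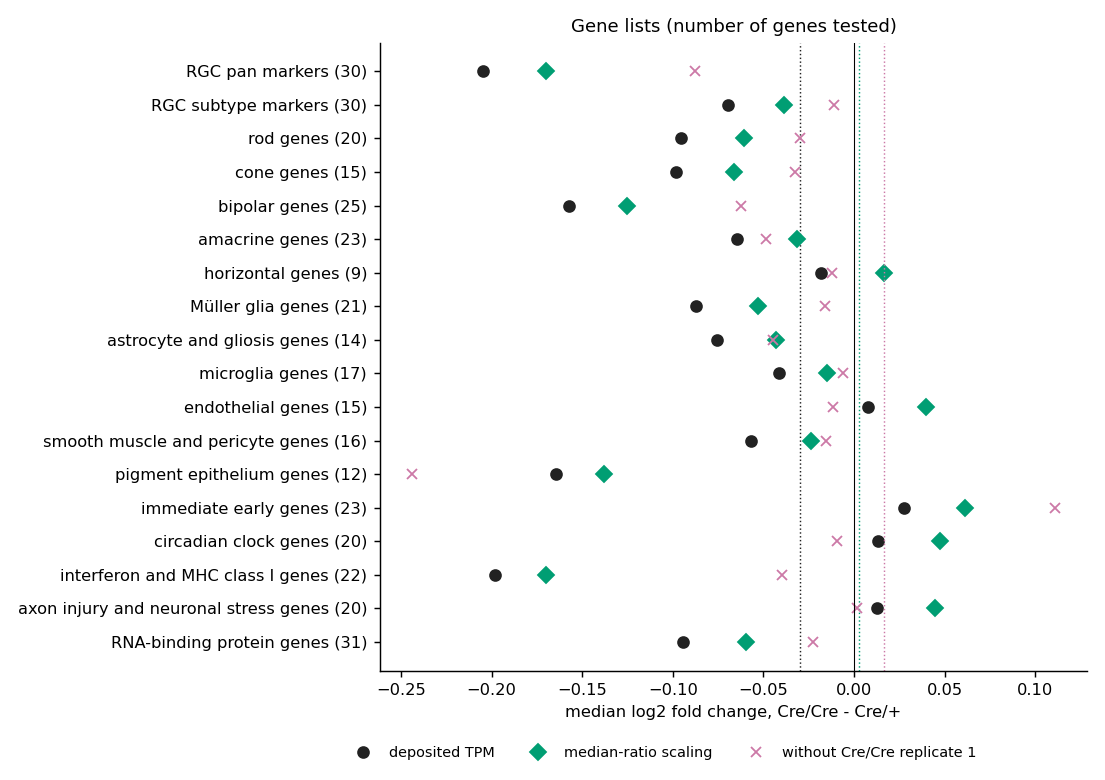
Median log2 fold change (Cre/Cre minus Cre/+) of 18 gene lists, with the number of tested genes in brackets, from deposited TPM (black circles), after median-ratio scaling (green diamonds) and without Cre/Cre replicate 1 (crosses). Dotted lines are the medians of all tested genes in each fit (-0.03, 0.00 and 0.02), and the RGC list is at -0.20, -0.17 and -0.09.

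In gene classes whose RNA lacks a poly(A) tail, medians fell without Cre/Cre replicate 1, the library rich in Rn45s. Only that of small nucleolar and Cajal body RNA genes stayed above 0, and their calls did not become fewer. The 11 tested genes of RNAs without such a tail had a median of 1.27, which was -0.47 without that library. Of 50 replication-dependent histone genes the median was 0.22, with 4 higher and 1 lower at an unadjusted p under 0.05. These were 8% and 2%, against 2.38% and 4.2% of all tested genes. Without the library the median was -0.06, with 1 higher and 6 lower. Of 96 small nucleolar and Cajal body RNA genes the median was 0.21, with 8 higher and 5 lower at such a p (8.33% and 5.21%). Without the library the median was 0.09, with 12 higher and 8 lower. *Snora75*, a small nucleolar RNA annotated within an exon of *Ncl*, had 2.62, 2.77 and 5.07 TPM in Cre/+ and 11.5, 9.21 and 13.1 TPM in Cre/Cre (log2 fold change 1.48, adjusted p = 0.41 in limma). It was high in all 3 homozygous libraries and was called when only the 6 libraries entered the fit.

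Ribosomal protein genes had medians near 0. Of 84 cytosolic ribosomal protein genes the median was -0.01, with 4 higher and 4 lower at an unadjusted p under 0.05. Each was 4.76%, against 2.38% higher and 4.2% lower of all tested genes. *Rpl22l1*, a paralog of a large subunit protein, had 172, 181 and 166 TPM in Cre/+ and 135, 140 and 140 TPM in Cre/Cre (log2 fold change -0.32), and *Rps4l* had 94.5, 81.5 and 104 TPM in Cre/+ and 106, 126 and 123 TPM in Cre/Cre (0.34). Of 78 mitochondrial ribosomal protein genes the median was -0.00, with 3 higher (3.85%) and 1 lower (1.28%). Of 93 nuclear genes of the respiratory chain the median was -0.04, with 1 higher (1.08%, against 2.38%) and 8 lower (8.6%, against 4.2%), and the lower count was 4 without Cre/Cre replicate 1 and 18 without Cre/Cre replicate 2. *Atp5k*, a subunit of ATP synthase, had 282, 310 and 255 TPM in Cre/+ and 203, 251 and 215 TPM in Cre/Cre (log2 fold change -0.34).

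By chromosome, the 527 tested genes of the X had a median of -0.09, which was -0.08 with *Xist* as a covariate and -0.02 when Cre/Cre replicate 1 was left out. The 5 tested genes of the Y had a median of 1.63, which was -0.08 with that covariate. Medians of the autosomes lay between -0.06 and 0.01.

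Wild type retinas were used to place the 2 groups. Every +/+ library was *Xist*-rich (516 to 571 TPM), as were Cre/+ replicates 1 and 2 and Cre/Cre replicate 2. This pattern followed the order of the genotypes, and its part in the placement was not tested. Over all tested genes the +/+ mean lay between those of Cre/+ and Cre/Cre in 31.0%, beyond Cre/+ in 28.7% and beyond Cre/Cre in 40.3%. For the 1000 genes with an unadjusted p under 0.05 it lay between in 705 (70.5%). It was nearer Cre/Cre in 620 of them (62%), close to the 57.5% of all tested genes. For the 30 RGC markers it was nearer Cre/+ in 24 (80%, against 42.5% of all tested genes) and beyond Cre/Cre in 0 (against 40.3%). *Rbpms*, whose level was ordered +/+, Cre/+, Cre/Cre without overlap, had a mean difference of -9.46 TPM for Cre/+ minus +/+ and of -11.2 TPM for Cre/Cre minus Cre/+. Since the same libraries serve in these comparisons, the shares are a description and carry no test.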

How the data were processed

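Total RNA of whole retinas was selected for poly(A), per the study's methods, and made into strand-specific libraries for sequencing. Reads were trimmed (Trimmomatic), mapped on mm10 (HISAT2) and turned into gene values (StringTie) by the authors, per their processing notes. They deposited a gene table for each library with TPM, FPKM and coverage. The authors' DESeq2 analysis used counts, which were not used here. Tool versions are not given in the sources used here. Depth was estimated from the most common ratio of deposited coverage to FPKM, and was 4.05 to 4.65 gigabases a library.

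TPM were summed by gene ID, giving 25239 IDs. Genes with a mean of at least 1 TPM over 9 libraries (15198) were tested on log2(TPM + 1) with limma 3.58.1 in R 4.3.3, with trend and robust prior, genotype as the only term and 6 residual degrees of freedom. P-values were adjusted by Benjamini-Hochberg, with a limit of 0.05. The count test planned for whole counts was replaced by limma because TPM are not counts. Single values were compared by an exact permutation test. The fit was tested on simulated data. Tables and figures used Python 3.11.15, pandas 2.3.3, scipy 1.17.1 and matplotlib 3.10.9. Gene positions were compared with GENCODE vM21 on GRCm38.

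The genes named are *Rbpms*, *Rbpms2*, those past the adjusted limit, the 10 higher and 10 lower genes with the smallest p and no overlap, the genes of the study's discussion, and in each list or class the 2 smallest-p members in each direction and the most abundant. Host genes of named loci, overlapping genes, *Hbb-b2* and others outside this rule were chosen after their values were seen. The members and lists were chosen with earlier results of these data known. Same-numbered Cre/+ and Cre/Cre libraries did not deviate together, so numbers were not treated as pairs. Alternatives were another pseudocount, other filters, only 6 libraries, a replicate block, *Xist* as a covariate, no robust prior, FPKM, other scalings and leaving out each library. Genes of the mitochondrial genome were not analysed here.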

Additional observations from a re-analysis of the deposited data

How the results depend on the processing

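The count of genes past an adjusted p of 0.05 in limma was 2. It was 1 without a filter, without the robust prior, after median-ratio scaling and, in an alternative chosen after seeing the data, after that scaling without Cre/Cre replicate 1. It was 5 with a mean of at least 5 TPM, and 6 both with *Xist* as a covariate and with FPKM. It was 0 with overlapping globin names summed, also chosen after seeing the data, as was the count with a 2-fold change. That count, 1, became 2 with a pseudocount of 0.1 or a fold limit of 1.5, and 3 with only the 6 libraries. Without 1 library the counts ran from 1 to 8, and with the 2-fold limit from 1 to 5. The highest, 8, was without Cre/Cre replicate 3. The cause was not tested.

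Replicate numbers were shared between groups, but same-numbered Cre/+ and Cre/Cre libraries had correlations of deviations of -0.0854, -0.0556 and 0.128. With the replicate block 1 gene was called. DESeq2 was not run, because no counts were used.

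*Rbpms* kept its direction in every alternative. It passed the limit at -0.60 with a mean of at least 5 TPM, -0.64 with *Xist* as a covariate and -0.57 with FPKM. Without 1 library it ran from -0.70 to -0.54.

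Of 67 other named genes, 7 changed sign under some alternative, each with a log2 fold change smaller than its SE. With TPM rescaled after leaving out RNA genes without poly(A) tails, *Rbpms2* was 0.0090, *Sec24c* was 0.053, *Tubb3* was 0.029 and *Msi1* was 0.047. After median-ratio scaling, *Sec24c* was 0.032, *Tubb3* was 0.0077 and *Msi1* was 0.026. With that scaling and no Cre/Cre replicate 1, *Rbpms2* was 0.021, *Hbb-b2* was -0.175, *Dennd4b* was -0.0075, *Sec24c* was 0.017, *Tubb3* was 0.042 and *Msi1* was 0.028. With *Xist* in the fit, *Sec24c* was 0.0024. With FPKM, *5031439G07Rik* was -0.019 and *Dennd4b* was -0.0063. Leaving out 1 library at a time, the values ran from -0.146 to 0.039 for *Rbpms2*, from -0.158 to 0.409 for *Hbb-b2*, from -0.059 to 0.072 for *5031439G07Rik*, from -0.0076 to 0.045 for *Dennd4b*, from -0.035 to 0.035 for *Sec24c*, from -0.076 to 0.060 for *Tubb3* and from -0.057 to 0.047 for *Msi1*.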
